A study of Homo sapiens with 10 samples.

Results

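The cancer-testis antigen families were examined in the bulk RNA-seq profiles of 5 untreated human prostate cancer cell lines. Members were all rows of the deposited table whose symbol began with MAGEA, MAGEB, MAGEC, GAGE, PAGE, XAGE, SSX, CTAG, CT45A or CT47A and ended in a digit or in a digit and 1 letter from A to J, which gave 95 of 60642 gene symbols. The families were chosen because GAGE2E and GAGE12F had been the largest increases of LNCaP against the other lines, so every value of LNCaP beside the other lines is given here as a description, with no test. Each of LNCaP, DU145, PC3, VCAP and DUCAP was represented by 2 biological repeats, and all 10 samples were grown untreated in phenol red-free medium with fetal bovine serum and harvested in exponential growth. DUCAP and VCAP were derived from metastases of the same patient, so they are not independent examples of prostate cancer. Each line is a single cell line, and p-values measure only the spread between its repeats.

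Cancer-testis genes are transcribed in male germ cells and in few healthy adult tissues, where DNA methylation and repressor complexes keep them silent, and they are switched on in many tumours. Most lie on the X chromosome in clusters of copies that differ by few bases. MAGEA proteins bind and redirect ubiquitin ligases, SSX proteins are nuclear repressors that also form part of the fusion protein of synovial sarcoma, and the GAGE, PAGE and XAGE proteins are small, disordered and related to each other. Several of them are studied as targets of T cells.

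Of the 95 members, 39 were listed at 0 in every sample and 56 were above 0 in at least 1. Values are TPM, the share of a sample's transcripts scaled to a fixed total, which corrects for gene length and does not keep the read depth. The columns as deposited were not exactly equal in total and summed to between 982880 and 991998 TPM. A mean of at least 1 TPM in a line was reached by 23 members, and 19 of these were highest in LNCaP. LNCaP had 20 members with at least 1 TPM in both repeats, against 5 in DUCAP, 4 in DU145, 3 in PC3 and 2 in VCAP. All members together summed to 1207.96 and 1167.25 TPM in the LNCaP repeats, 121.51 and 163.0 in DU145, 29.51 and 36.14 in DUCAP, 11.48 and 9.61 in VCAP, and 6.57 and 6.55 in PC3. Each line therefore had its own level, and no repeat of a line overlapped the repeats of another. The leading family differed too. GAGE held 54.2 and 56.1% of the sum in LNCaP and MAGEA 39.7 and 37.9%, whereas MAGEA held 82.6 and 84.9% in DUCAP and XAGE held 96.0 and 97.2% in DU145.

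**Figure D1:**
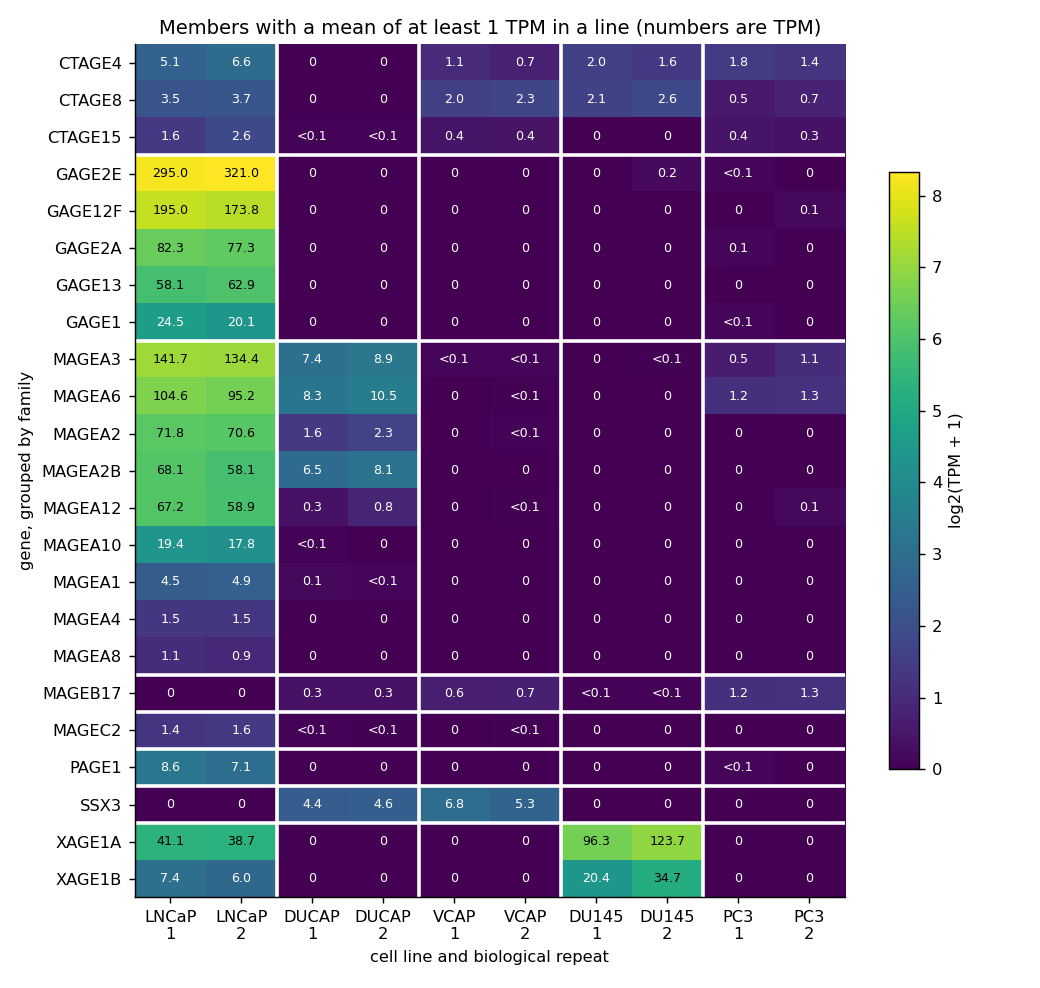
Expression of the 23 members with a mean of at least 1 TPM in a line. Rows are genes grouped by family, columns are the 2 biological repeats of each of 5 lines, the colour gives log2(TPM + 1) and the printed numbers are TPM. GAGE genes are bright in LNCaP alone, MAGEA genes are brightest in LNCaP with lower values of 4 of them in DUCAP, XAGE1A and XAGE1B in LNCaP and DU145, and SSX3 has values in DUCAP and VCAP.

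The labels of the lines were checked first. ERG, the partner in the gene fusion that DUCAP and VCAP are known for, lay between 122 and 199 TPM in those lines and at 0.19 TPM or less in the others. KLK3, which encodes PSA, was highest in DUCAP at 2625 and 2583 TPM, and FOLH1, which encodes PSMA, was highest in LNCaP at 682 and 878 TPM. Of 9 germ cell markers, 4 were at 0 in every sample and the summed level of all 9 lay between 1.36 and 1.83 TPM in LNCaP, far below the member sums of that line. It lay between 3.15 and 3.46 TPM in DUCAP and between 2.50 and 4.04 TPM in VCAP, closer to the lower member sums there (9.61 and 11.48 TPM in VCAP). The summed level of 3 leukocyte markers did not exceed 0.30 TPM in any sample. Of the other markers, VWF, an endothelial gene, had 5.45 and 4.22 TPM in LNCaP and at most 0.64 TPM elsewhere, with PECAM1 at 0.43 TPM or less in every sample, and the fibroblast collagen COL1A1 had 31.51 and 38.02 TPM in PC3 and at most 6.66 TPM elsewhere, with DCN at 0.79 TPM or less. Their part in the results was not tested. The 37 mitochondrial genes held 12.7 to 22.5% of all TPM in LNCaP, DU145 and PC3 samples, against 32.1 to 36.0% in those of DUCAP and VCAP, which scales every other value, and their part in the differences below is given by a rescaled alternative.

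GAGE was the most abundant family. Of its 13 members, the RefSeq annotation of GRCh38.p14 places 12 side by side on the short arm of the X chromosome. These span chrX:49303646-49608538. GAGE2E, whose symbol did not match that annotation, had 294.99 and 320.99 TPM in the LNCaP repeats. GAGE12F had 195.03 and 173.83 TPM, and GAGE2A had 82.26 and 77.31 TPM. These were the GAGE genes with the highest levels, and their repeats lay close together. GAGE13 had 58.06 and 62.85 TPM and GAGE1 had 24.54 and 20.05 TPM in the same samples. In the 8 samples of the other lines, the values of these 5 genes ran from 0 to 0.16 TPM, and GAGE13 was listed at 0 in all 8, so LNCaP did not overlap any other line. The remaining 8 GAGE members stayed under 1 TPM in every line, 3 of them at 0 in every sample.

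The sum over the family changed less between the LNCaP repeats than its parts did. It was 654.88 and 655.33 TPM (mean 655 ± 0.318 SD, n = 2), while GAGE2E rose from 45.0 to 49.0% of it and GAGE12F fell from 29.8 to 26.5%. GAGE copies share most of their sequence, and RSEM, the tool that made the values, divides a read that fits several copies between them. Of all 100-base windows of the annotated transcripts of GAGE2E, 100% occurred in at least 1 other gene of the family, not always the same one. This held for 95.7% of the windows of GAGE12F, 78.2% of GAGE2A, 70.1% of GAGE13 and 11.3% of GAGE1. The largest share with a single other gene was 72.5% for GAGE2E, with GAGE2D, and 95.1% for GAGE12F, with GAGE12G. GAGE2D has no row under that symbol in the deposited table, so a division of reads with it cannot be seen. The levels of single copies are therefore uncertain. The family sum is firmer, but TPM corrects for gene length, so dividing reads between copies of unequal length can change it too. That effect was not tested. In DUCAP and VCAP the sum was listed at 0 in all 4 samples, in DU145 it was 0.11 and 0.16 TPM, and in PC3 it was 0.47 and 0.24 TPM.

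**Figure D2:**
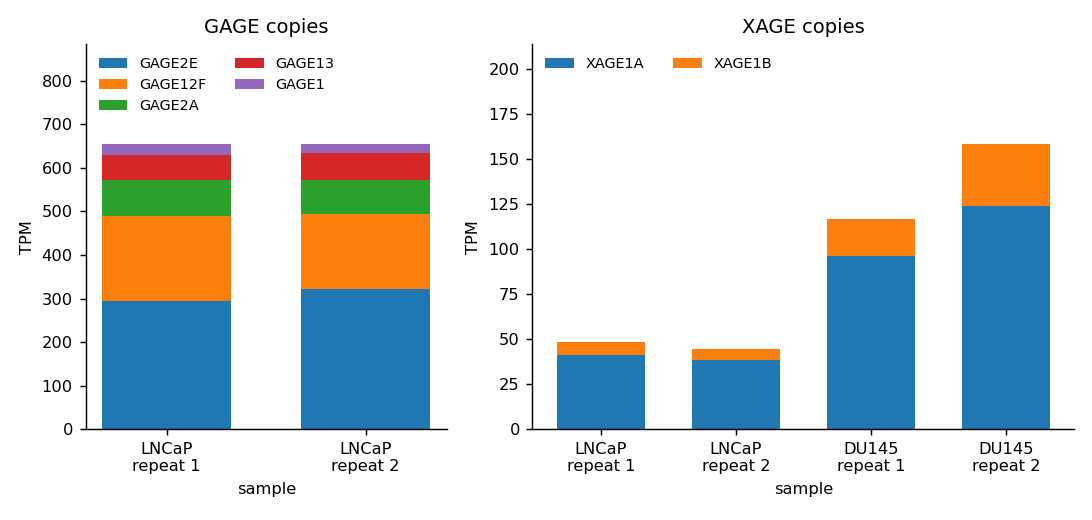
TPM of single copies stacked by sample, on linear axes from 0. On the left, the 5 GAGE genes with a mean of at least 10 TPM add up to nearly the same height in both LNCaP repeats with different shares; on the right, XAGE1A and XAGE1B are shown in the samples of LNCaP and DU145, and DU145 is higher.

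The GAGE promoters show how alike the copies are. RefSeq windows from 250 bases before to 50 bases after an annotated start were available for 62 of the 95 members. That of GAGE12F was identical, over all 300 bases, to those of GAGE2A, GAGE12C, GAGE12D, GAGE12E, GAGE12H and GAGE12J, and 5 of these 7 genes had no value above 0.2 TPM in any sample. Those low values are uncertain, since 95.7% of the transcript windows of GAGE12F occur in other copies, so they do not compare the activity of the promoters. The window of GAGE12F was also close to others. It differed from that of GAGE13 by 1 base, from GAGE12G by 6 and from GAGE1 by 14. The window of GAGE12F is printed beside that of XAGE1A because both hold the same unbroken run of 30 bases, in capitals. The run occurred in 11 of 27305 promoter windows (0.0403%), and these were 9 GAGE genes, XAGE1A and XAGE1B. The XAGE1A window is set by another start than that of the gene, which is chrX:52495808. The windows lie on the plus strand of GRCh38.p14 at chrX:49560592-49560891 for GAGE12F and chrX:52495627-52495926 for XAGE1A, and read 5′ to 3′.
GAGE12F: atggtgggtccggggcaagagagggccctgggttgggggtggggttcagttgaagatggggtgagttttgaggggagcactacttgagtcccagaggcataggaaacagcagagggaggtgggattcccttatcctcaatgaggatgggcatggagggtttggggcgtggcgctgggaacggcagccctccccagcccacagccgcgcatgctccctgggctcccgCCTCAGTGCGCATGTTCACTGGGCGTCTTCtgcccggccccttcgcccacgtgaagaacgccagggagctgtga
XAGE1A: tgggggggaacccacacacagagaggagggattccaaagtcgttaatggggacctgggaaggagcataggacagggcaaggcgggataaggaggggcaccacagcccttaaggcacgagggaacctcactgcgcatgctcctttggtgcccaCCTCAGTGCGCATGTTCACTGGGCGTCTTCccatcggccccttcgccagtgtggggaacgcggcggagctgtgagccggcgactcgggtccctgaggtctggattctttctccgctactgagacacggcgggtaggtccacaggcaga
All 12 GAGE windows held CACGTG, the E-box that MYC, MAX and related factors can bind, read on both strands, against 7.43% of all promoter windows and 22 of the 62 members. GAGE windows had 11 to 13 CG dinucleotides, near the median of 14 over all promoters. These matches describe the letters only, since no binding or methylation was measured.

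MAGEA was the second family of LNCaP and the leading family of DUCAP. MAGEA3 and MAGEA6, partners of the ubiquitin ligase TRIM28, had 141.72 and 134.44 TPM and 104.57 and 95.23 TPM in the LNCaP repeats. In DUCAP MAGEA3 had 7.41 and 8.89 TPM and MAGEA6 had 8.33 and 10.52 TPM. In PC3 MAGEA3 had 0.54 and 1.06 TPM and MAGEA6 had 1.24 and 1.28 TPM. For both genes LNCaP was highest, followed by DUCAP and then PC3, without overlap, and VCAP and DU145 had at most 0.08 TPM.

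The other abundant MAGEA genes were also highest in LNCaP. MAGEA2 had 71.75 and 70.60 TPM in LNCaP and 1.59 and 2.29 TPM in DUCAP. MAGEA2B, its near-identical copy, had 68.11 and 58.11 TPM and 6.50 and 8.09 TPM. MAGEA2 shares 85.8% of its 100-base transcript windows with MAGEA2B, so the unequal split between them in DUCAP is uncertain. MAGEA12 had 67.21 and 58.92 TPM in LNCaP and 0.33 and 0.82 TPM in DUCAP, and MAGEA10 had 19.45 and 17.77 TPM in LNCaP and at most 0.06 TPM elsewhere. Neither shared a 100-base window with another gene of the family. In VCAP, DU145 and PC3 these 4 genes did not exceed 0.12 TPM. MAGEA1 (4.55 and 4.88 TPM), MAGEA4 (1.48 in both repeats) and MAGEA8 (1.08 and 0.93) were above 1 TPM by their mean in LNCaP alone.

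DUCAP was not a scaled copy of LNCaP. Its mean MAGEA sum was 5.97% of that of LNCaP, but the share differed by gene: 11.6% for MAGEA2B, 9.43% for MAGEA6, 5.90% for MAGEA3, 2.73% for MAGEA2, 0.912% for MAGEA12 and 0.161% for MAGEA10. GAGE, at 655 TPM in LNCaP, was listed at 0 in DUCAP.

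Most of these genes belong to a single cluster at Xq28. MAGEA3, MAGEA2B, MAGEA12, MAGEA2 and MAGEA6 lie within 70.9 kb, at chrX:152698794-152769689 of GRCh38.p14, with the CSAG genes between them. CSAG1 and CSAG3, cancer-testis genes that are not members, had 66.20 and 57.08 TPM and 67.12 and 73.45 TPM in LNCaP and 0.49 and 2.01 TPM and 3.49 and 4.44 TPM in DUCAP, and at most 0.12 TPM in the other 3 lines. CSAG3 shares all its transcript windows with CSAG2, so their levels are uncertain. CSAG2 (1.48 and 0.59 TPM) and CSAG4 (2.95 and 4.28 TPM) were low in LNCaP and listed at 0 in DUCAP. Of the next genes outside the cluster, CETN2, a centrosome gene, lay between 13.5 and 87.0 TPM over all 10 samples and NSDHL, a gene of cholesterol synthesis, between 7.92 and 50.1 TPM, both highest in PC3, while GABRQ on the other side stayed at 0.28 TPM or less.

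**Figure D3:**
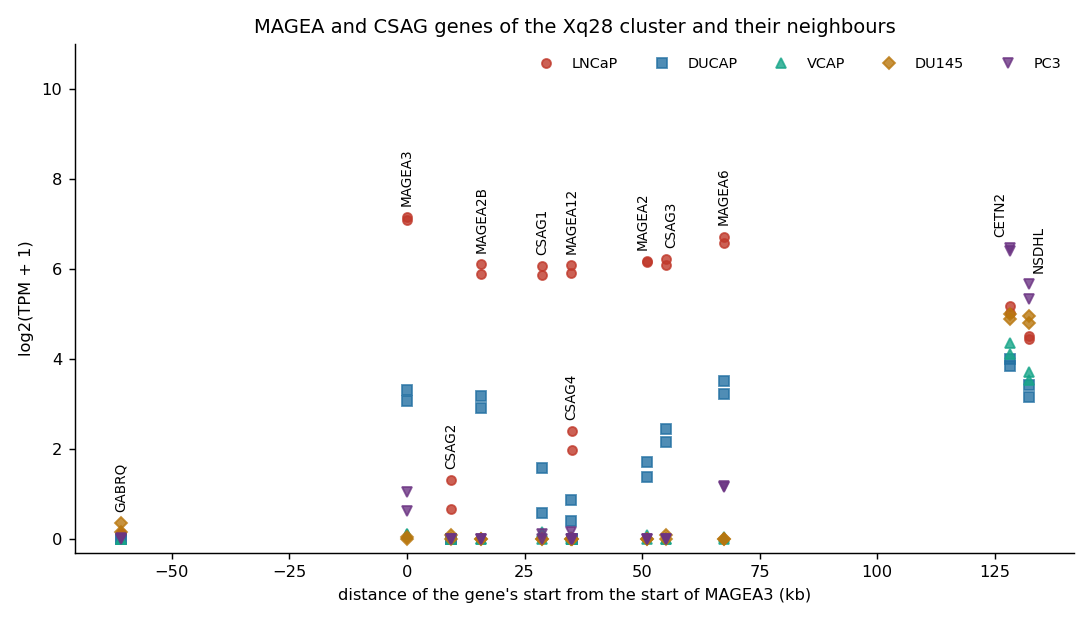
Levels along the MAGEA and CSAG cluster, with the distance of each gene's start from that of MAGEA3 (kb) on the x axis and log2(TPM + 1) on the y axis, 1 point per sample. LNCaP lies above DUCAP, and DUCAP above the other lines, at MAGEA3, MAGEA2B, CSAG1, MAGEA12, MAGEA2, CSAG3 and MAGEA6, whereas CETN2 and NSDHL have values in all lines.

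The promoter windows of MAGEA3, MAGEA2 and MAGEA12 are printed because these 3 genes, at 58.92 to 141.72 TPM in LNCaP, were listed at different shares of that level in DUCAP. The shares of MAGEA3 and MAGEA2 depend on the division of reads with their copies. The window of MAGEA6 is identical to that of MAGEA3. Capitals mark a run of 27 bases that all 3 hold, which occurred in 5 of 27305 windows (0.0183%), those of MAGEA2, MAGEA2B, MAGEA3, MAGEA6 and MAGEA12. The windows lie at chrX:152698544-152698843 (plus strand), chrX:152753835-152754134 (minus strand) and chrX:152733507-152733806 (plus strand) of GRCh38.p14, and read 5′ to 3′ along each gene's strand.
MAGEA3: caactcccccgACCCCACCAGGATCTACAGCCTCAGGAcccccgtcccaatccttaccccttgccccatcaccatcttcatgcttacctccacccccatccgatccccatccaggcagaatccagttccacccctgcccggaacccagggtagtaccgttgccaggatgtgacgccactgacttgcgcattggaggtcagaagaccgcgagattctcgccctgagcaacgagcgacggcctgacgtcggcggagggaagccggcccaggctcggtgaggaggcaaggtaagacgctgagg
MAGEA2: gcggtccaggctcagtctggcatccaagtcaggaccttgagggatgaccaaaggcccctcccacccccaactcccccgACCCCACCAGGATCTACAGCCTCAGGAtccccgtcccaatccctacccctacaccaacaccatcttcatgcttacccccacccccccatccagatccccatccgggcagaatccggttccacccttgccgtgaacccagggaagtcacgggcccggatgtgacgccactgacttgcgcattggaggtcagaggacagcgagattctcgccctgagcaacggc
MAGEA12: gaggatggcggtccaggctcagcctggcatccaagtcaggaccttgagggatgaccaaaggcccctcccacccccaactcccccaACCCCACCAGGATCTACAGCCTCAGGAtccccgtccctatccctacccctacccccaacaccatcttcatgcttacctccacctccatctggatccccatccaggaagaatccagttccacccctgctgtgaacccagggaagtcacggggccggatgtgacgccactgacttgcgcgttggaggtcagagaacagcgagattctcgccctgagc
CCGGAA, a sequence that ETS factors can bind, was in the windows of MAGEA3 and MAGEA6, against 17.6% of all promoter windows. It was in no other of the 10 MAGEA windows searched on both strands. Other forms of the ETS site were not searched for, and the printed windows of MAGEA2 and MAGEA12 hold CCGGAT. The search therefore does not show whether ETS sites differ between these genes. The windows held 19 CG dinucleotides in MAGEA3, 13 in MAGEA2 and 9 in MAGEA12.

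XAGE was highest in DU145, ahead of LNCaP. XAGE1A had 96.32 and 123.67 TPM in the DU145 repeats and 41.09 and 38.68 TPM in LNCaP, and was listed at 0 in the other 6 samples. XAGE1B, 11.3 kb further along the X chromosome, had 20.36 and 34.68 TPM in DU145 and 7.37 and 6.02 TPM in LNCaP, with 0 elsewhere. The groups did not overlap in either gene, and the mean XAGE sum of DU145 was 2.95 times that of LNCaP. Every 100-base window of XAGE1A also occurs in XAGE1B, and their promoter windows are identical, so their split, with XAGE1A at 78.0 to 86.4% of the family sum in these 4 samples, is uncertain and the sum is the firmer value. The sum was 116.68 and 158.47 TPM in DU145, a spread between repeats that was wider than in LNCaP (48.64 and 44.76 TPM).

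SSX had its highest sums in DUCAP and VCAP. SSX3 had 4.36 and 4.61 TPM in DUCAP and 6.83 and 5.28 TPM in VCAP and was listed at 0 in the other 6 samples, LNCaP included. It carried nearly all of the SSX sum in those lines (4.56 and 4.98 TPM in DUCAP, 6.89 and 5.28 in VCAP), whereas the LNCaP sum of 1.19 and 0.82 TPM came from other SSX genes, led by SSX4. SSX3 shared no 100-base window with another gene of the family.

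The remaining families were low. PAGE1, which lies 78.9 kb beyond GAGE1, had 8.55 and 7.10 TPM in LNCaP and at most 0.08 TPM in the other lines. MAGEC2 had 1.37 and 1.62 TPM in LNCaP, and MAGEB17 was highest in PC3, at 1.22 and 1.29 TPM, followed by VCAP at 0.61 and 0.67 and DUCAP at 0.34 and 0.32. The 9 CT45A, 12 CT47A and 3 CTAG members summed to at most 0.75 TPM per family in any sample; the last of these include CTAG1B, which encodes NY-ESO-1. The 6 CTAGE symbols fall under the CTAG prefix but are a separate family on other chromosomes, and were kept apart. CTAGE4 had 5.14 and 6.63 TPM in LNCaP, 0.70 to 1.96 TPM in VCAP, DU145 and PC3, and 0 in DUCAP, and CTAGE8 had 3.49 and 3.67 TPM, 0.47 to 2.56 TPM and 0 in the same lines. Over 95% of the transcript windows of each occur in at least 1 other gene of the family.

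**Figure D4:**
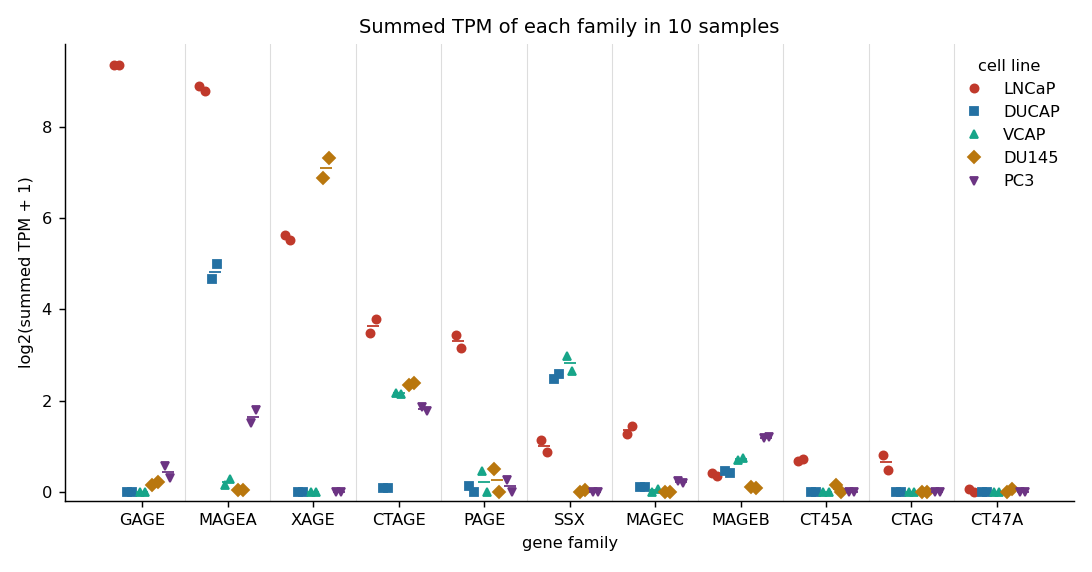
Summed TPM of each of the 11 families on the log2(summed TPM + 1) scale, with 1 point per biological repeat and a short line at the mean of the 2 log values of each cell line. GAGE, MAGEA, CTAGE and PAGE are highest in LNCaP, XAGE is highest in DU145, SSX in VCAP and DUCAP, and MAGEB in PC3.

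Tests were made only between the 4 lines that had not chosen the families. Of the 95 members, 22 passed the filter of at least 1 TPM in at least 2 samples. Of these, 12 passed only with the help of LNCaP, the line that chose the families: 5 GAGE genes, MAGEA1, MAGEA4, MAGEA10, MAGEA12, MAGEC2, PAGE1 and CTAGE15. They were low or at 0 in the lines compared, so the counts below do not speak for all members, and the shares of members called are not read against those of all genes. In an alternative chosen after the data were seen, the filter used the 8 samples of the other lines, and 10 members were left. Differences are on the log2(TPM + 1) scale, which understates the change of low genes, and adjusted p-values are from limma over all 17520 genes tested.

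DUCAP and VCAP, the pair from the same patient, differed in MAGEA. Higher in DUCAP were 5 of 22 members, all MAGEA genes, against 4.24% of all genes tested, and 2 were higher in VCAP, against 14% of all genes. With the filter on the other lines, 4 and 2 of 10 members were called. MAGEA6 was higher in DUCAP by 3.35 (SE 0.16, limma adjusted p = 1.04e-05) and MAGEA3 by 3.08 (SE 0.18, limma adjusted p = 2.52e-05). MAGEA2 was higher by 1.50 (SE 0.15, limma adjusted p = 0.000418), and MAGEA2B, listed at 0 in VCAP, passed with a limma adjusted p of 1.36e-05. The repeats of the 2 lines did not overlap in any of these. MAGEA12, under 1 TPM in both lines and tested only because of LNCaP, passed narrowly at 0.61 (SE 0.17, limma adjusted p = 0.0457), and lost the call with the replicate block (limma adjusted p = 0.0584) and in 5 of 8 fits that left out 1 sample, with adjusted p up to 0.242 without DUCAP repeat 2. CTAGE8 and CTAGE4, both listed at 0 in DUCAP, were the members higher in VCAP (limma adjusted p = 0.000186 and 0.00883), and CTAGE4 lost the call without DUCAP repeat 1, DUCAP repeat 2 or VCAP repeat 1 (adjusted p up to 0.0625). SSX3 was called in neither direction, at -0.35 (SE 0.14, limma adjusted p = 0.114), with all VCAP values above those of DUCAP. The median over the 22 members was 0, and that over all genes tested was -0.12. After rescaling without mitochondrial genes, 5 members were higher in DUCAP and 4 in VCAP.

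On family sums 8 families were tested, of which GAGE, MAGEC and PAGE passed the filter only with LNCaP. MAGEA was higher in DUCAP by 4.61 (SE 0.18, limma adjusted p = 2.91e-06) and CTAGE was higher in VCAP, at -2.08 (SE 0.15, limma adjusted p = 8.01e-05). The other 6 were not called, beside 18.2% of all rows in that fit. With rescaling without mitochondrial genes, 1 family was higher in DUCAP and 2 in VCAP. The DUCAP sums of MAGEA, 24.37 and 30.70 TPM, lay above the VCAP sums, 0.10 and 0.22 TPM.

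DU145 and PC3 differed in XAGE and MAGEA. Of the 22 members 3 were higher in DU145, against 23.8% of all genes tested, and 4 were higher in PC3, against 25.5% of all genes. With the filter on the other lines, 3 and 3 of 10 members were called. XAGE1A and XAGE1B, listed at 0 in PC3, passed with limma adjusted p of 6.55e-08 and 1.39e-06. CTAGE8 was higher in DU145 by 1.07 (SE 0.14, limma adjusted p = 0.000451). MAGEA6, listed at 0 in DU145, was higher in PC3 (limma adjusted p = 0.000422), and MAGEB17 differed by -1.08 (SE 0.10, limma adjusted p = 4.38e-05) and was higher in PC3. These calls remained in every alternative that gave them a value. MAGEA3 differed by -0.81 (SE 0.18, limma adjusted p = 0.00607) and lost the call without PC3 repeat 2, at -0.60 with an adjusted p of 0.0511, the highest over its alternatives. CTAGE15, at 0.40 TPM or less outside LNCaP and tested only because of LNCaP, differed by -0.44 (SE 0.15, limma adjusted p = 0.0360) and lost the call in all 8 fits that left out 1 sample, with adjusted p up to 0.154. The medians over members and over all genes were both 0. With median-ratio scaling, 3 members were higher in DU145 and 2 in PC3.

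On family sums 4 of 8 families were called, beside 49.3% of all rows in that fit. XAGE was higher in DU145 (limma adjusted p = 7.48e-08), MAGEA differed by -1.60 (SE 0.18, limma adjusted p = 0.000138) and MAGEB by -1.09 (SE 0.10, limma adjusted p = 5.31e-05), both higher in PC3. CTAGE, higher in DU145 by 0.54 (SE 0.15, limma adjusted p = 0.0181), lost the call without either PC3 repeat (adjusted p 0.0583 and 0.0992) and with quantile normalization (0.116, the highest over its alternatives). With quantile normalization 1 family was higher in DU145 and 2 in PC3, and with median-ratio scaling 2 and 1. All PC3 sums of MAGEA (1.83 and 2.46 TPM) lay above those of DU145 (0.03 in both repeats).

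The last comparison set DUCAP and VCAP against DU145 and PC3. Higher in DUCAP and VCAP were 5 of 22 members, beside 18.9% of all genes tested, and 4 were higher in DU145 and PC3, beside 57.8%. With the filter on the other lines, 5 and 4 of 10 were called. The median over all genes was -0.59, a shift that quantile normalization reduced to 0.05, and with it 7 members were higher in DUCAP and VCAP and 3 lower, against 6 and 3 with median-ratio scaling. For SSX3, all 4 samples of DUCAP and VCAP had 4.36 to 6.83 TPM and all 4 of DU145 and PC3 were listed at 0 (limma adjusted p = 9.26e-08). MAGEA2, MAGEA2B, MAGEA3 and MAGEA6 also passed, at 0.79 to 1.52 with limma adjusted p of 0.000166 or less, but their values came from DUCAP, and VCAP did not exceed 0.08 TPM in any of them. XAGE1A and XAGE1B were higher in DU145 and PC3 (limma adjusted p = 6.25e-08 and 2.47e-06) through DU145 alone. CTAGE4 differed by -0.97 and CTAGE8 by -0.37 (limma adjusted p = 9.80e-05 and 0.00909), and CTAGE8 lost the call with quantile normalization and median-ratio scaling (adjusted p 0.579 and 0.285). For CTAGE8 the low values came from DUCAP, listed at 0, while VCAP (1.98 and 2.33 TPM) lay above PC3 (0.47 and 0.72). The CTAGE sum also lay higher in VCAP (3.52 and 3.40 TPM) than in PC3 (2.65 and 2.42). On family sums 5 of 8 were called, beside 76.8% of all rows: SSX (limma adjusted p = 1.86e-07) and MAGEA (1.67, limma adjusted p = 4.11e-06) were higher in DUCAP and VCAP, and XAGE, CTAGE and GAGE were lower. The GAGE family was tested only because of LNCaP, and with the filter on the other lines 4 of 5 families were called. The GAGE call, -0.31 with a limma adjusted p of 0.0233, compared sums of 0 with sums of at most 0.47 TPM and was lost without DUCAP repeat 1, DUCAP repeat 2 or PC3 repeat 1 (adjusted p up to 0.0925).

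Genes of DNA methylation and germline-gene repression were compared in the same fits. The list of 38 held mostly writers, readers and repressors, and also TET1, TET2, TET3 and TDG, which act in the removal of DNA methylation, so its counts mix both kinds. Of the 38, 37 were tested. None was higher in DUCAP, beside 4.24% of all genes, and 6 were higher in VCAP, beside 14%. DNMT3A, a DNA methyltransferase, was at 4.04 and 3.46 TPM in DUCAP and 13.98 and 11.88 in VCAP (-1.55, limma adjusted p = 0.00294), and the repressor E2F6 (-1.02, limma adjusted p = 0.00795) was also among them, but lost the call without DUCAP repeat 1 (adjusted p = 0.0624, the highest of the fits that left out 1 sample) or VCAP repeat 2 (0.0507). Between DU145 and PC3, 8 were higher in DU145 and 10 in PC3, beside 23.8 and 25.5% of all genes, with KDM5B, a histone demethylase, at 28.71 and 18.11 against 88.96 and 121.01 TPM (-2.14, limma adjusted p = 0.000149), and MAX at -1.43. The chromatin remodeller HELLS, at 1.64, had 16.35 and 45.30 TPM in the DU145 repeats, which lie far apart, and 8.4 and 7.77 TPM in PC3. It was at 0.93 without DU145 repeat 2, and lost the call without PC3 repeat 1 or 2 (adjusted p = 0.0535 and 0.0665). In the last comparison 8 were higher in DUCAP and VCAP and 16 lower, beside 18.9 and 57.8% of all genes, led by MBD2 (-1.81), UHRF1 (-1.79) and MBD3 (-1.52). UHRF1 had 27.08 and 88.17 TPM in the DU145 repeats, and was at -1.38 without DU145 repeat 2. The list's medians were -0.22, -0.10 and -0.25, beside -0.12, 0 and -0.59 over all genes. Whether these levels bear on the members was not tested.

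The MAGE genes that many healthy tissues express were compared as relatives of the members. Of 11 such genes 9 were tested. None was higher in DUCAP and 4 were higher in VCAP, 2 were higher in DU145 and 5 in PC3, and the last comparison had 2 higher and 6 lower, read against the same shares of all genes (4.24 and 14%, 23.8 and 25.5%, 18.9 and 57.8%), with medians of -0.60, -1.57 and -0.92. MAGED4B had 57.05 and 53.63 TPM in PC3, 11.55 and 3.03 in DU145 and at most 5.59 in any other sample. MAGEH1 was listed at 0 in LNCaP and had 27.16 to 46.01 TPM in DUCAP and VCAP, higher than in DU145 and PC3 by 2.92 (limma adjusted p = 3.08e-07). MAGED2 was lower in DUCAP than in VCAP (-1.11), as was NDN (-0.96), and MAGEE1, at 6.31 and 7.06 TPM in PC3, was listed at 0 in DU145.

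Cancer-testis genes outside the families were on in other lines too. Of 55 such genes 15 were tested. CSAG1, NXF2, VCX and BAGE2 passed the filter only with LNCaP, so the counts do not speak for the whole list. DUCAP had 3 higher and VCAP 1, DU145 had 7 higher and PC3 1, and the last comparison had 3 higher and 8 lower, again beside 4.24 and 14%, 23.8 and 25.5%, and 18.9 and 57.8% of all genes, with medians of 0, 0.18 and -0.50. CSAG3, listed at 0 in VCAP, and CSAG1 (1.00, limma adjusted p = 0.0464) were higher in DUCAP, and PRAME, an inhibitor of retinoic acid signalling listed at 0 in DUCAP, was higher in VCAP (limma adjusted p = 0.0387). The call of PRAME was lost when any 1 of 8 samples was left out, all but those of DU145, with adjusted p up to 0.189 without VCAP repeat 1. That of CSAG1 was lost when any 1 of 7 was left out, all but those of DU145 and DUCAP repeat 1, with adjusted p up to 0.175 without VCAP repeat 2 and a difference of 0.49 without DUCAP repeat 2. DU145 expressed CT83 (26.54 and 31.53 TPM), DDX43 (14.10 and 12.80) and the germ cell bromodomain gene BRDT (17.27 and 10.96), which had at most 0.01 TPM in PC3. TDRD1, a germ cell gene of the piRNA pathway, had 21.36 to 28.47 TPM in all 4 samples of DUCAP and VCAP and was listed at 0 in DU145 and PC3 (limma adjusted p = 2.44e-08). PRAME had 13.73 to 32.62 TPM in DU145 and PC3 and at most 1.11 TPM in DUCAP and VCAP (-4.13, limma adjusted p = 1.57e-07). It was highest in LNCaP, which was not compared, at 54.05 and 67.67 TPM.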

How the data were processed

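Total RNA of untreated LNCaP, DUCAP, VCAP, DU145 and PC3 cells was sequenced from polyA-enriched, strand-specific libraries, with 2 biological repeats per line. The authors trimmed the reads (Trim Galore 0.6.5, after FastQC 0.11.9), aligned them with STAR 2.7.2b to GRCh38 with the Ensembl and Gencode transcriptome, quantified them with RSEM 1.3.3 and deposited TPM for 60642 gene symbols. TPM keep no depth, so no counting interval was computed. Lines and repeat numbers were taken from the labels.

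The 95 members and all gene lists were chosen with earlier results of these data known. Members were matched by symbol, and 18 rows that began with the same prefixes were left out. These were pseudogene, antisense and readthrough rows and SSX2IP, which is none of these. The 6 SSXP symbols, pseudogenes by name, end in a digit and were kept as members, 5 of them at 0 in every sample. Values were transformed to log2(TPM + 1), and limma 3.58.1 (R 4.3.3) was run on the 17520 genes that reached 1 TPM in 2 or more samples. The model had a coefficient for each line and a prior variance that followed expression level, and p-values were adjusted by the Benjamini-Hochberg method (threshold 0.05). A further fit replaced the member rows by the summed TPM of each family. The named genes were every member with a mean of at least 10 TPM in a line, up to 3 of the highest others with at least 1 TPM per family, and the 3 called genes with the largest change in each other list and comparison; CETN2, NSDHL, GABRQ, CSAG2, CSAG4, the TET genes, TDG and the endothelial and fibroblast markers were added after their values were seen. Some genes that this rule names are not reported here. The fit was tested on simulated data, in 1 simulation with each gene's own spread and in another with the spread smoothed over the level; it gave no wrong direction. The share of false calls was far above the nominal threshold in the first run with each gene's own spread, and slightly above it in both simulations as kept, which use another random seed. The smoothed version was added after that first run, and adjusted p-values near the threshold should be read with that in mind.

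Promoter windows and coordinates are those of RefSeq for GRCh38.p14 (94 of 95 members matched). Shared 100-base windows were counted on Gencode transcripts of another release than that of the authors. Python 3.11.15, pandas 2.3.3 and matplotlib 3.10.9 were used.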

Additional observations from a re-analysis of the deposited data

How the results depend on the processing

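The alternatives were a pseudocount of 0.1, no filter, quantile normalization, median-ratio scaling, rescaling without mitochondrial genes, no variance trend, a minimum absolute log2 fold change of 1, the repeat number as a block, and each sample left out. A filter on the 8 samples of the other lines was added after seeing the data. Of 34 called fold changes, 24 kept their call and direction in every alternative that gave a value and 10 lost the call in at least 1. None reversed. The numbers of member genes called ranged over the leave-one-out fits from 5 to 7 (7 with all samples) between DUCAP and VCAP, from 4 to 7 (7) between DU145 and PC3, the lowest without PC3 repeat 2, and from 9 to 10 (9) in the last comparison. Over the same fits, families called were 2 (2) between DUCAP and VCAP, 2 to 4 (4) between DU145 and PC3, the lowest without either PC3 repeat, and 4 to 5 (5) in the last comparison. Other settings gave 3 families between DUCAP and VCAP (no filter, or without mitochondrial genes), 6 and 5 between DU145 and PC3 (pseudocount of 0.1, and no filter), and 3 in the last comparison (minimum fold change). The GAGE sum in LNCaP, 655 TPM, was 598 with quantile normalization, 543 with median-ratio scaling and 825 without mitochondrial genes, and 654.88 to 655.33 in single repeats.

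With the replicate block, 6 member genes were called between DUCAP and VCAP in place of 7, since MAGEA12 lost its call, and 7 and 9 in the other comparisons. No label links repeat 1 of a line to repeat 1 of another. The deviations of repeats with equal numbers correlated at -0.191 to 0.249 over 10 pairs of lines, above 0.1 in 3, so the block has no basis in the design. When a sample was left out, the lone repeat of its line was assumed to vary like the other lines.

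With 2 repeats per line the spread is poorly known, TPM hide the depth behind low values, and a value listed at 0 is not shown to be absent.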

Other observations

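NXF2 and NXF2B, X-linked cancer-testis genes of mRNA export that are no members, had 6.37 and 1.20 TPM and 0.14 and 6.02 TPM in the LNCaP repeats and were listed at 0 in the other 8 samples. The higher value was thus in NXF2 in repeat 1 and in NXF2B in repeat 2. NXF2 shares 95.4% of its 100-base transcript windows with NXF2B. They were named after their values were seen, and the part of RSEM's division of reads between them in this exchange was not tested.

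MAGED4 was at 2.65 and 8.72 TPM in the LNCaP repeats, beside 5.42 and 5.59 TPM of its copy MAGED4B, with which it shares 98.2% of transcript windows. The readthrough row MAGEA10-MAGEA5, which was left out of the members, had 0.41 TPM in LNCaP repeat 1 and was at 0 in the other 9 samples.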
